A study of Mus musculus with 30 samples.

Results

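The clustered protocadherin locus is a stretch of mouse chromosome 18 that holds the Pcdha, Pcdhb and Pcdhg gene families side by side. Accessible regions (peaks) belonged to it if they overlapped the RefSeq body of a gene with a symbol starting Pcdha, Pcdhb or Pcdhg, extended by 10 kb on both sides (GRCm38). The rule drew on gene positions and not on measured values. It covered 58 genes, of which 14 were Pcdha, 22 Pcdhb and 22 Pcdhg, and found 39 of the 257149 peaks in the count table. The Pcdha subcluster held 16 of these peaks, the Pcdhg subcluster 23 and the Pcdhb subcluster 0. All 39 passed the filter on low counts.

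Clustered protocadherins are adhesion proteins of the cell surface that bind their own kind on neighbouring membranes, and they let the branches of a neuron tell self from other. Each Pcdha and Pcdhg variable exon has its own promoter and is spliced to constant exons that the genes of a subcluster share, while Pcdhb genes have no constant exon. A neuron is known to choose few of the alternate promoters, in a process that involves CTCF, cohesin and DNA methylation, whereas the C-type genes (Pcdhac1, Pcdhac2, Pcdhgc3, Pcdhgc4 and Pcdhgc5) are expressed in most neurons.

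The libraries were bulk ATAC-seq, which reads where a transposase can insert into chromatin. Each came from the ventral hippocampal nuclei of 1 of 30 mice. Handled mice were gently lifted by the tail, and chronically restrained mice spent time in a tube daily for 10 days. All mice were then housed singly for a day. Some were then taken from the home cage with no acute stress (0 min), and the others were restrained and taken 45 min after that restraint began. The 4 groups were handled at 0 min (n = 8), handled at 45 min (n = 7), chronically restrained at 0 min (n = 8) and chronically restrained at 45 min (n = 7), and each held both sexes and all 4 batches of the labels. Strain and age are not given in the sources used here.

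Total counts in peaks ran from 26104576 to 55294838 per library, and the 39 peaks took 0.0240% to 0.0265% of them. Levels are given in CPM (counts divided by the TMM-scaled library total, on the usual CPM scale of edgeR) or as CPM per kb of peak where peaks are compared with each other. Animal 45, a handled female at 0 min from batch 4, stood apart. It had 42.1% of its counts in peaks within 1 kb of an end of a protein-coding gene, against 37.7% to 40.3% in the other 29 libraries. Its TMM scaling factor was 0.875, against 0.971 to 1.03 in those libraries, and a lower factor raises every CPM of a library. Before this scaling the 39 peaks took 0.0265% of its counts, as they did in animal 40 of the same group (0.0265%). Animal 45 was the highest library of its group at 17 of the 39 peaks (43.6%), compared with 28.9% of all tested peaks. Its level against the median of the other 7 was 0.16 higher on the log2 scale at the median member.

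Peaks lay at the far end of the Pcdha and Pcdhg subclusters and nowhere in Pcdhb. The stretches given here begin 1 kb before the first gene start they name. From Pcdha1 to 1 kb before Pcdhac1, 159851 bp held 12 gene starts and 0 peaks. The next 99762 bp, from 1 kb before Pcdhac1 to the shared end of the Pcdha genes, held 16 peaks, which covered 13.7% of its length. The 257422 bp from Pcdhb1 to Pcdhb22 held 22 gene starts and 0 peaks. From Pcdhga1 on to 1 kb before Pcdhgc3, 144635 bp with 19 gene starts, 10 peaks covered 4.42%. From Pcdhgc3 to the shared end of the Pcdhg genes, 36464 bp, 7 peaks covered 78.5%, and the 10 kb beyond were covered to 86.1% by 7 peaks, with the peak across the shared end counted on both sides. Between the first and last peak, 8.71% of chromosome 18 and 10.6% of the autosomes were covered.

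**Figure D1:**
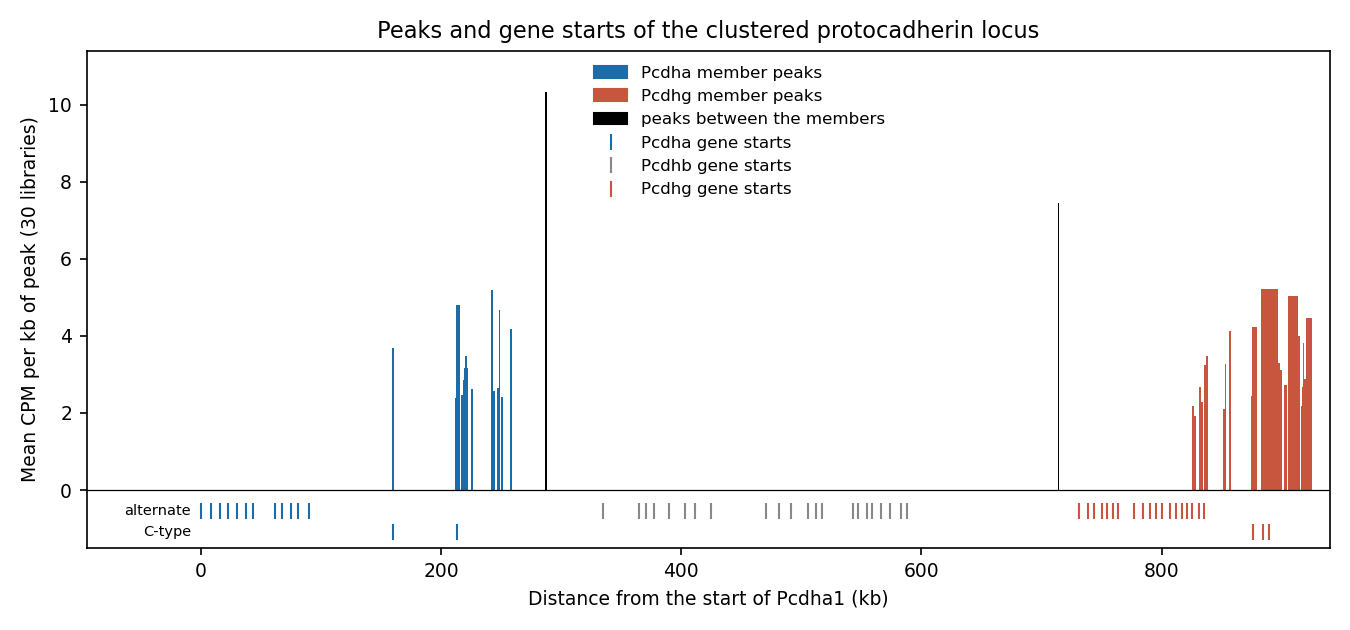
Mean level (CPM per kb of peak, over 30 libraries) of the peaks along the locus, against the distance from the start of Pcdha1 in kb; coloured bars are member peaks and black bars the peaks between them (drawn at least 1.5 kb wide to be visible) and ticks below are gene starts of the alternate and C-type genes. The 16 Pcdha peaks begin at Pcdhac1, the 23 Pcdhg peaks crowd towards the C-type genes, and no peak lies over the 22 Pcdhb starts.

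The C-type genes all had a peak at their start and the alternate genes mostly had none. A peak lay within 1 kb of the start of 5 of 5 C-type genes and of 3 of 53 alternate genes, which were Pcdhga11, Pcdhga12 and Pcdhgb8, a transcribed pseudogene. None of the 12 alternate Pcdha genes and none of the 22 Pcdhb genes had such a peak. With a window of 250 bp the total stayed at 8 of 58 genes (13.8% with 1 kb). As a reference, 11682 of 16457 protein-coding autosomal genes with a listed start (71%) had a peak within 1 kb, and so did 8 of 8 non-clustered protocadherins (Pcdh7, Pcdh8, Pcdh9, Pcdh10, Pcdh15, Pcdh17, Pcdh18 and Pcdh20). The annotation table gives no strand, and the low-coordinate end was taken as the start because the Pcdha genes and the Pcdhg genes share their other end. Reference genes were instead placed by strand from a list of starts and counted if any of their starts had a peak. The shares of clustered and reference genes thus rest on unlike definitions of a start.

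The table holds counts only inside called peaks. A start without a peak was therefore not measured here, and its accessibility may be low or may have escaped calling. The first exons of alternate genes resemble each other closely in sequence, and how reads that match several places were treated is not given in the sources used here. Its part in the missing peaks was not tested.

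The gaps between peaks in the locus were long. The gap over the alternate Pcdha genes (chr18:36805351-37089408) was 284058 bp, and 632 of 255076 gaps on the autosomes were at least as long. The gap over all Pcdhb genes (chr18:37218640-37643761) was 425122 bp, with 281 gaps at least as long, and the gap over the first 17 Pcdhg genes (chr18:37644588-37755908) was 111321 bp, with 3004 at least as long. The median autosomal gap was 878 bp. These 3 gaps were among 74 in which at least 10 protein-coding genes begin. In 37 of the 74 the commonest gene symbols were those of olfactory or vomeronasal receptors (Olfr, Vmn), and the other 37 included arrays of prolactin-related (Prl), major urinary protein (Mup), natural killer receptor (Klra) and defensin (Defa) genes.

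The C-type starts also carried the higher levels. The start of Pcdhgc4, a gene known for its part in the survival of interneurons, and the start of Pcdhgc5 lay in a single peak 14119 bp wide (chr18:37812857-37826975) with 5.21 ± 0.29 CPM per kb (SD, n = 30). Only 0.592% of all peaks were 10 kb or wider. Pcdhac2, which serotonergic axons need for their spacing, followed with 4.79 ± 0.31 CPM per kb at a peak of 3415 bp (chr18:37143086-37146500). Pcdhgc3, whose protein binds the Wnt pathway scaffold Axin1, had 4.23 ± 0.49 CPM per kb at a peak of 3532 bp (chr18:37805823-37809354). Pcdhac1 had 3.68 ± 0.43 CPM per kb (1583 bp, chr18:37089409-37090991).

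The alternate starts were lower. The peak 147 bp after the Pcdhga12 start had 3.24 ± 0.65 CPM per kb, the Pcdhgb8 start 2.68 ± 0.62 and the peak 136 bp after the Pcdhga11 start 2.18 ± 0.40. Neighbours in this order overlapped within 1 SD at each step, while the Pcdhgc4 and Pcdhgc5 start did not overlap with the Pcdhgc3 start, the Pcdhac1 start or any of the 3 alternate starts. Against all tested peaks, 94.7% lay below the Pcdhgc4 and Pcdhgc5 start and 7.53% below the Pcdhga11 peak.

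Of the 39 peaks, 32 lay more than 1 kb from any clustered start. Highest per kb among the Pcdha peaks was one 28521 bp after the Pcdhac2 start (chr18:37172199-37172974), with 5.20 ± 0.89 CPM per kb. Another 34561 bp after that start (chr18:37178239-37179039) had 4.68 ± 0.94. In the Pcdhg subcluster a peak of 8442 bp over the shared end of the genes (chr18:37835205-37843646) had 5.04 ± 0.24 CPM per kb. It reaches into the end of Diaph1, a formin that nucleates actin filaments and is the next gene along the chromosome, and 6 further members lay wholly beyond the Pcdhg genes, within Diaph1. Over all members the median was 3.13 CPM per kb, compared with 2.74 over all tested peaks, and the median width was 776 bp, compared with 561 bp.

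A few peaks carried most of the summed level in Pcdhg and a large part of it in Pcdha. The sums are not divided by peak width, so wide peaks weigh more in them. The Pcdhgc4 and Pcdhgc5 start made up 36.3% of the Pcdhg sum, the peak over the shared end 21.0% and a peak within Diaph1, 31080 bp after the Pcdhgc5 start (chr18:37850626-37855511, 4.47 ± 0.41 CPM per kb), 10.8%. The Pcdhac2 start made up 33% of the Pcdha sum and the Pcdhac1 start 11.7%. Variation between animals differed among the peaks. The lowest biological coefficient of variation of edgeR was 0.0698 at the shared Pcdhg end and 0.0744, among the Pcdha peaks, at the Pcdhac2 start. The highest were 0.165 at the Pcdhgb8 start and 0.153 at a peak 11964 bp after the Pcdhac2 start. The median was 0.125 over the members and 0.132 over all tested peaks. The low values were at well covered peaks and the high ones at sparse peaks. The mean level was 16.4 CPM at the Pcdhac2 start and 1.14 CPM at the Pcdhgb8 start. The part of coverage in this order was not tested.

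The limit of 10 kb left out the most accessible peak near the Pcdha genes. The last Pcdha member (chr18:37187975-37188427) had 4.17 ± 0.65 CPM per kb, and the next peak, 28233 bp past the end of the Pcdha genes (chr18:37217130-37218639), had 10.3 ± 2.1 CPM per kb, with 99.3% of all peaks below it. HS5-1, a known enhancer of the Pcdha genes, lies downstream of them, but the files hold no position for it and the peak was not matched to it. This peak had 13.9, 14.5 and 28.6 CPM in the handled mice at 0 min (lowest, median and highest), 13.5, 14.7 and 17.9 in the handled mice at 45 min, 10.8, 16.2 and 20.3 in the chronically restrained mice at 0 min, and 11.5, 14.3 and 18.2 in those at 45 min. The groups overlapped, and the value of 28.6 was that of animal 45, with the other 7 of its group between 13.9 and 16.9. Its averaged acute difference was -0.10 ± 0.09 (log2, SE; edgeR, adjusted p = 0.895). Without animal 45 it was -0.054 (adjusted p = 0.934).

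The only peak between this one and the Pcdhg genes (chr18:37643762-37644587) overlapped Taf7, a subunit of the general transcription factor TFIID, with 7.44 ± 1.3 CPM per kb. On the far side, the first peak outside the limit (chr18:37855614-37856907, in Diaph1) had 2.56 ± 0.26 CPM per kb.

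The first comparison asked whether acute restraint altered accessibility, as the difference of 45 min minus 0 min averaged over both histories. No member peak passed an adjusted p of 0.05 (0 of 39), against a background of 0.116% of all tested peaks (edgeR, 299 of 257143). Within handled mice 0 of 39 passed (background 0.0109%) and within chronically restrained mice 0 of 39 (background 0.00272%). An unadjusted p under 0.05 was reached by 0, 1 and 1 members in these comparisons, where the background was 7.17%, 5.52% and 4.73%. DESeq2 called 0 members in each, where its background was 0.259%, 0.0256% and 0.0274% of the peaks it gave an adjusted p, and gave none for 8, 2 and 20 of the members.

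Differences were small and mostly below 0. Of the 39 log2 differences, 30 were negative (51% of all tested peaks were), from -0.19 to 0.052, with a median of -0.033 (-0.0025 over all peaks) and a median SE of 0.087. In Pcdha 12 of 16 were negative (median -0.062) and in Pcdhg 18 of 23 (median -0.028). Neighbouring peaks of a locus share their libraries and are not independent, so these counts describe the locus and carry no test. In the other fits between 21 and 32 of the 39 were negative, and in males alone the Pcdhg median was 0.019. A lower value in tissue can mean fewer cells with an open site or less opening per cell, which cannot be told apart here.

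**Figure D2:**
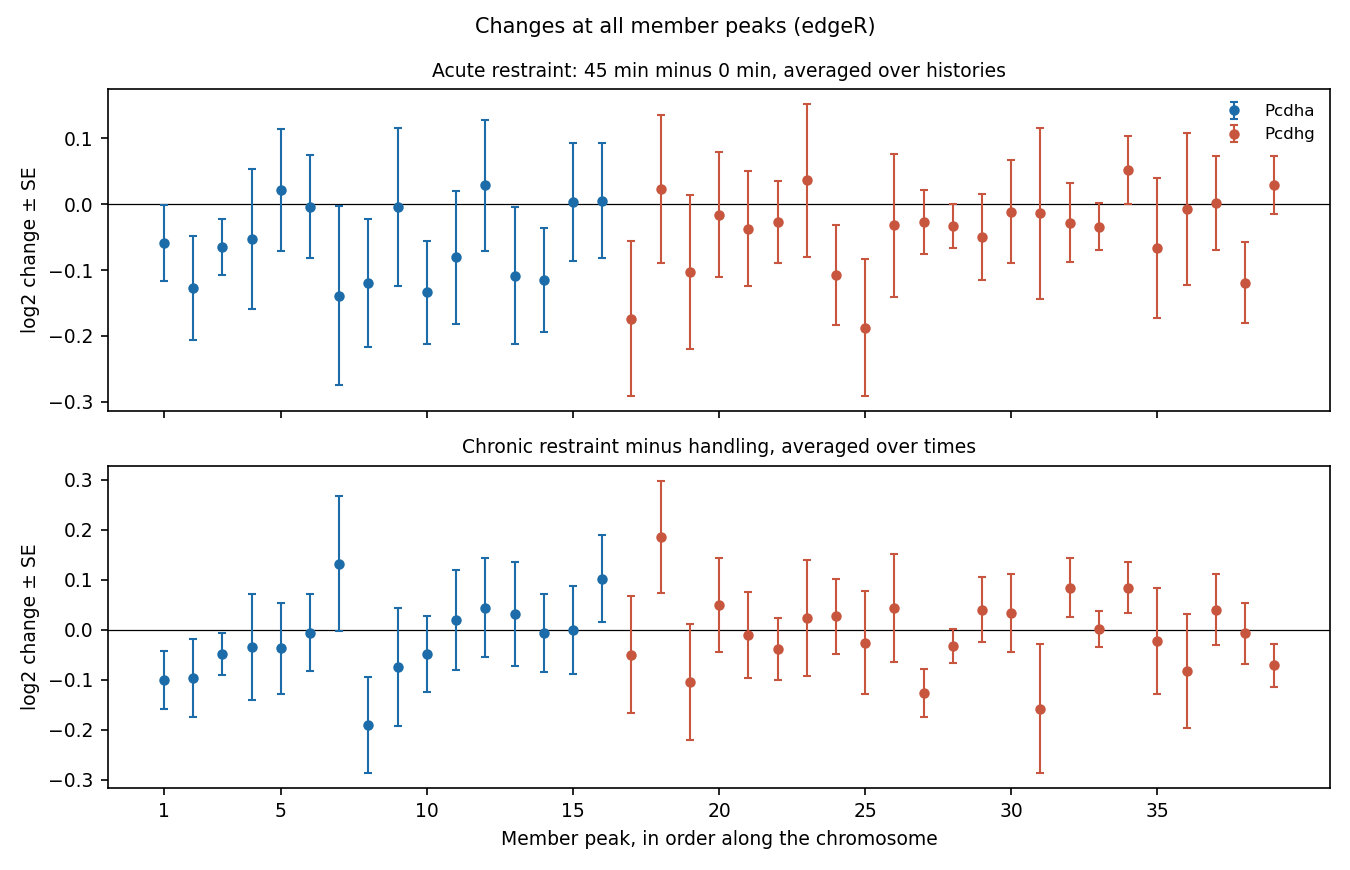
Log2 differences with SE (edgeR) at the 39 member peaks in order along the chromosome, for acute restraint (45 min minus 0 min, upper panel) and chronic restraint (minus handling, lower panel). For acute restraint 30 of 39 points lie below 0 with a median of -0.033; for chronic restraint 23 of 39 do, with a median of -0.0071, and no peak passed an adjusted p of 0.05 in either.

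The C-type starts showed how little the groups were apart. The Pcdhac2 start had 15.7, 16.5 and 19.5 CPM in the handled mice at 0 min (lowest, median and highest), 15.6, 16.1 and 17.5 in the handled mice at 45 min, 15.1, 16.5 and 17.3 in the chronically restrained mice at 0 min, and 14.7, 15.9 and 16.4 in those at 45 min. The ranges of all 4 groups overlapped, with the highest values among handled mice at 0 min. Its acute difference was -0.065 ± 0.042 (edgeR, adjusted p = 0.812). The difference of mean log2 CPM was negative in 4 of 4 batches, at -0.14 in females and 0.0085 in males. Batches are parts of the same libraries and give no separate support. At the other C-type starts this difference was negative in 3 of 4 batches (Pcdhac1, and Pcdhgc4 with Pcdhgc5) and in 2 of 4 (Pcdhgc3).

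The Pcdhac1 start had 5.16, 5.89 and 7.80 CPM in the handled mice at 0 min, 4.98, 5.87 and 7.10 in the handled mice at 45 min, 5.30, 5.76 and 6.74 in the chronically restrained mice at 0 min, and 4.87, 5.33 and 5.95 in those at 45 min. Groups overlapped here too, and the acute difference was -0.058 ± 0.058 (edgeR, adjusted p = 0.911). The Pcdhgc4 and Pcdhgc5 start had 71.5, 72.5 and 90.0 CPM in the handled mice at 0 min, 68.6, 73.1 and 79.6 in the handled mice at 45 min, 70.2, 73.8 and 79.3 in the chronically restrained mice at 0 min, and 68.1, 71.9 and 73.5 in those at 45 min. The value of 90.0 was that of animal 45, and the others of that group were between 71.5 and 77.6. At this peak, the best covered of the locus with a mean of 2905 counts per library, the acute difference was -0.033 ± 0.034 (edgeR, adjusted p = 0.915), and -0.019 ± 0.028 without animal 45 (adjusted p = 0.950).

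**Figure D3:**
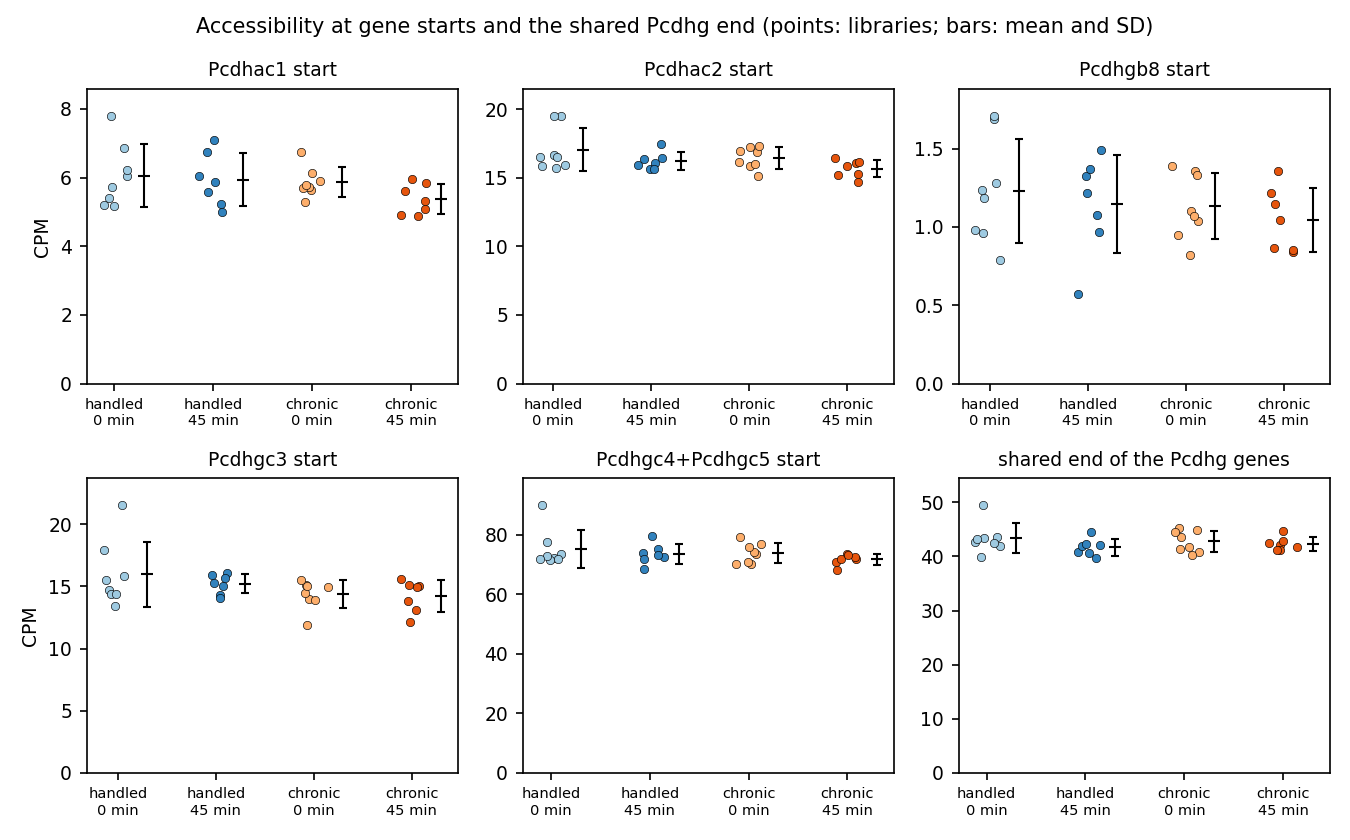
CPM per library (points) with the mean and SD (bars) in the 4 groups at 5 peaks that cover gene starts and at the peak over the shared end of the Pcdhg genes. The ranges of the 4 groups overlap in every panel, and at the Pcdhgc4 and Pcdhgc5 start the point at 90.0 CPM is animal 45.

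Among the peaks with the smallest acute p, a distal Pcdhg peak 29172 bp after the Pcdhgc5 start, within Diaph1 (chr18:37848718-37850413), came first. It had 4.21, 5.25 and 6.07 CPM in the handled mice at 0 min, 4.13, 4.78 and 5.02 in the handled mice at 45 min, 4.27, 4.99 and 6.23 in the chronically restrained mice at 0 min, and 4.24, 4.60 and 5.45 in those at 45 min. Both 45 min medians were below both 0 min medians, with overlapping ranges. The difference was -0.12 ± 0.06 (edgeR, unadjusted p = 0.0571, adjusted p = 0.714), and that of the mean log2 CPM lay between -0.17 and -0.074 in the 4 batches. The batches are parts of the libraries by whose p this peak was named, so their agreement is no separate support.

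The peak 19489 bp before the Pcdhgc3 start (chr18:37786586-37786921) had 1.14, 1.35 and 2.80 CPM in the handled mice at 0 min, 1.08, 1.22 and 1.61 in the handled mice at 45 min, 1.13, 1.41 and 2.11 in the chronically restrained mice at 0 min, and 0.958, 1.25 and 1.52 in those at 45 min. Its value of 2.80 was again animal 45. The difference was -0.19 ± 0.10 (edgeR, adjusted p = 0.747) and -0.13 without that library. The peak 28521 bp after the Pcdhac2 start had an acute difference of -0.13 ± 0.08 (edgeR, adjusted p = 0.769), the one 1011 bp before that start -0.13 ± 0.08 (adjusted p = 0.793) and the one 136 bp after the Pcdhga11 start -0.17 ± 0.12 (adjusted p = 0.828). At the shared Pcdhg end, with 39.8 to 49.5 CPM over the handled mice at 0 min and 39.8 to 44.5 at 45 min, the acute difference was -0.034 ± 0.036 (edgeR, adjusted p = 0.917). The value of 49.5 was that of animal 45, and without it the difference was -0.022 ± 0.031 (adjusted p = 0.945).

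The second comparison set chronic restraint against handling. No member passed at 0 min, at 45 min or averaged over both times (0 of 39 each), and neither did any other peak (background 0% in each, edgeR). DESeq2 called 0 members and 0, 0 and 1 of all peaks (0%, 0% and 0.000389%). An unadjusted p under 0.05 was reached by 2, 0 and 1 members, with a background of 4.60%, 3.78% and 5.44%, and by 0, 0 and 1 members without animal 45. The averaged differences ran from -0.19 to 0.19 and 23 of 39 were negative. Their median was -0.0071, but 0.011 without animal 45 and 0.0066 with libraries scaled by total count, so it had no fixed sign.

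The Pcdhgc3 start had the smallest unadjusted p. It had 13.4, 15.1 and 21.5 CPM in the handled mice at 0 min, 14.1, 15.3 and 16.0 in the handled mice at 45 min, 11.9, 14.7 and 15.5 in the chronically restrained mice at 0 min, and 12.1, 15.0 and 15.6 in those at 45 min. The lowest values of the chronic groups, 11.9 and 12.1, were below all handled mice, but the ranges overlapped and the medians lay close together. The 11.9 was that of animal 63, and the others of its group ran from 13.9 to 15.5. The averaged chronic difference was -0.13 ± 0.05 (edgeR, unadjusted p = 0.00940, adjusted p = 0.897). It was -0.094 without animal 45, whose 21.5 CPM was the highest value, -0.075 without batch 4, and -0.21 in females and -0.021 in males, a difference between the sexes that was not tested. That of the mean log2 CPM was negative in 4 of 4 batches, from -0.32 to -0.045. The -0.32 was that of batch 4, which holds animal 45 and 1 library in each 45 min group. This peak was named by its p over the same libraries, so the batch signs give no separate support.

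A narrow peak 7339 bp after the Pcdhac2 start (chr18:37151017-37151491) had 1.36, 1.63 and 2.26 CPM in the handled mice at 0 min, 1.17, 1.48 and 1.78 in the handled mice at 45 min, 1.21, 1.36 and 1.71 in the chronically restrained mice at 0 min, and 1.03, 1.49 and 1.76 in those at 45 min. Handled mice at 0 min reached the highest values, and all groups overlapped. Its chronic difference was -0.19 ± 0.10 (edgeR, unadjusted p = 0.0507, adjusted p = 0.912). The Pcdhac1 start had -0.10 ± 0.06 (adjusted p = 0.912) and the peak 1660 bp after the Pcdhga11 start 0.19 ± 0.11 (adjusted p = 0.913), which was 0.38 in females and 0.027 in males (not tested).

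The third comparison asked whether the acute difference depended on history. No member passed (0 of 39, background 0%, edgeR), and 1 of 39 reached an unadjusted p under 0.05, with a background of 3.03%. DESeq2 called 0 members (background 0%). The single edgeR peak lay 1725 bp after the Pcdhga12 start (chr18:37767305-37768448) and was named after its values were seen. It had 3.50, 3.86 and 4.28 CPM in the handled mice at 0 min, 3.77, 4.22 and 4.57 in the handled mice at 45 min, 3.43, 4.18 and 4.59 in the chronically restrained mice at 0 min, and 3.24, 3.68 and 4.21 in those at 45 min. The median was higher at 45 min in handled mice and lower at 45 min in chronically restrained mice, with overlapping ranges (difference of differences -0.28 ± 0.12, edgeR, unadjusted p = 0.0255, adjusted p = 1).

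Between the sexes no member passed (0 of 39, edgeR) where 0.0350% of all peaks did, and DESeq2 called 0 members where 0.0412% of all peaks passed. An unadjusted p under 0.05 was reached by 2 of 39, with a background of 5.37%, and by 1 of 39 without animal 45. The 2 peaks were named after their values were seen. The peak 147 bp after the Pcdhga12 start had 1.80, 2.42 and 3.81 CPM in females (lowest, median and highest, n = 15) and 1.64, 2.13 and 2.67 in males (n = 15), and the Pcdhgc3 start had 12.1, 15.1 and 21.5 CPM in females and 11.9, 14.5 and 15.7 in males. The sexes overlapped at both peaks, and the highest female value was that of animal 45 at each. Females minus males was 0.21 ± 0.09 at the first (edgeR, adjusted p = 0.915) and 0.10 ± 0.05 at the second (adjusted p = 0.925). Without animal 45 these were 0.17 ± 0.08 and 0.066 ± 0.042 (edgeR, adjusted p = 1 for both). Of 39 differences 28 were positive, with a median of 0.014 (0.0044 over all peaks). Without animal 45, 20 were positive and the median was 0.0020 (0.00040 over all peaks). The median was -0.0072 with libraries scaled by total count (-0.016 over all peaks).

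Summed over its peaks, the Pcdha subcluster had 51.4 ± 4.7 CPM in handled mice at 0 min (SD, n = 8), 48.8 ± 1.5 in handled mice at 45 min (n = 7), 49.8 ± 1.1 in chronically restrained mice at 0 min (n = 8) and 47.8 ± 0.82 in those at 45 min (n = 7). In handled mice at 0 min the sums ran from 46.5 to 62.0, with the top value from animal 45, and without it the mean was 49.9 ± 2.2 (n = 7). The ranges of the 4 groups overlapped. In chronically restrained mice the overlap was narrow, with sums of 48.5 to 51.9 at 0 min and 46.4 to 48.7 at 45 min. Only the lowest library at 0 min lay below the highest at 45 min. The acute difference of the log2 sum was -0.064, compared with an SD within groups of 0.071, and -0.045 without animal 45 (SD 0.043). It was negative in 4 of 4 batches, from -0.10 to -0.017. Within chronically restrained mice, which do not include animal 45, the acute difference was -0.058. Within handled mice it was -0.071, and -0.032 without animal 45. The chronic difference was -0.036, or -0.016 without animal 45, and ran from -0.13 to 0.020 over the batches.

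The Pcdhg subcluster summed to 206.8 ± 15.1 CPM in handled mice at 0 min, 201.5 ± 5.7 in handled mice at 45 min, 203.0 ± 6.3 in chronically restrained mice at 0 min and 199.6 ± 3.1 in those at 45 min, with the same n. Animal 45 had 240.9, and the mean of its group was 201.9 ± 6.6 without it. The acute difference was -0.029 (SD within groups 0.061) and -0.013 without animal 45, and from -0.088 to 0.016 over the batches. The chronic difference was -0.019 and -0.0030 without animal 45, and from -0.094 to 0.0075 over the batches. The Pcdhg sum includes the 6 members wholly within Diaph1, of which the one 31080 bp after the Pcdhgc5 start alone made up 10.8%. The Pcdhb subcluster has no peak and so no value.

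**Figure D4:**
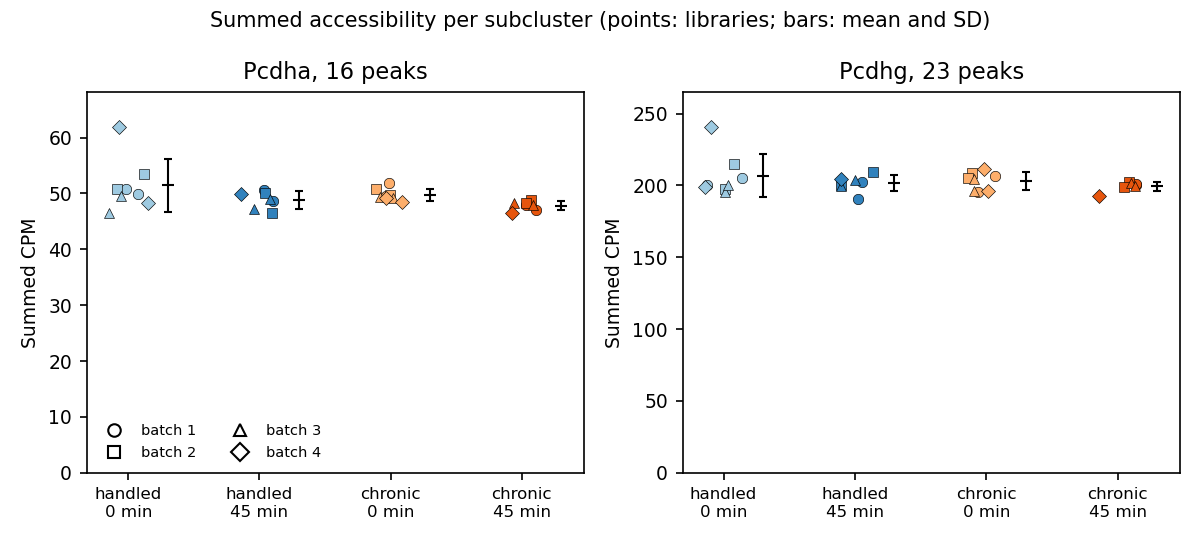
Summed CPM of the 16 Pcdha peaks (left) and the 23 Pcdhg peaks (right) per library, by group, with batches as symbols and the mean and SD as bars. The 4 groups overlap in both panels, and the highest points, at 62.0 and 240.9 CPM, are animal 45.

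The balance of both subclusters was also compared, with the members within Diaph1 kept in the Pcdhg sum. The log2 ratio of the Pcdhg sum to the Pcdha sum was 2.03 ± 0.047 (SD, n = 30), from 1.91 to 2.13, and the group means ran from 2.01 in handled mice at 0 min to 2.06 in chronically restrained mice at 45 min, within the spread of the libraries.

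Genes that act on the locus or with its proteins were described by the same calls at their own peaks, within 10 kb of the gene. The 18 factors of chromatin architecture and silencing (Ctcf, cohesin subunits and loaders, Smchd1, Setdb1, the DNA methyltransferases, Rest and Wiz among them) had 259 peaks, of which 0 passed in any of the 8 comparisons. For the averaged acute difference 16 of them (6.18%) had an unadjusted p under 0.05, below the 7.17% of all tested peaks, and the median was 0.021. The 12 binding partners and effectors (such as the kinases Ptk2 and Ptk2b, the actin regulators of the WAVE complex, and Axin1) had 699 peaks with 0 edgeR calls, and 41 (5.87%, again below 7.17%) at an unadjusted p under 0.05. DESeq2 called 2 of the 699, a share near its background of 0.259%. That background counts only the 167405 peaks with a DESeq2 adjusted p, and the 699 were not limited to such peaks. The 2 calls are therefore not read as a result about the list, and both peaks were named after their values were seen. At Wasf1, a WAVE complex subunit, a peak (chr10:40943570-40946235) had 8.15 ± 1.0 and 6.92 ± 0.41 CPM at 0 and 45 min in handled mice and 8.38 ± 0.83 and 7.15 ± 0.87 in chronically restrained mice. Its acute difference was -0.23 ± 0.06 (edgeR, adjusted p = 0.0761; DESeq2, adjusted p = 0.0496). At Ptk2b, a focal adhesion kinase that protocadherins bind, a peak (chr14:66179620-66180758) had 2.62 ± 0.45 and 3.24 ± 0.37 CPM in handled mice and 2.72 ± 0.35 and 3.31 ± 0.37 in chronically restrained mice, a difference of 0.29 ± 0.08 (edgeR, adjusted p = 0.102; DESeq2, adjusted p = 0.0466). The 4 neighbours Slc25a2, Taf7, Zmat2 and Diaph1 had 46 peaks, members within Diaph1 included, and 0 calls by either tool, with 1 (2.17%) at an unadjusted p under 0.05 for the averaged acute difference, also below 7.17%.

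Marker genes of cell types were looked up by the peaks at their ends. Peaks within 1 kb of a gene end were found for the excitatory neuron genes Slc17a7, Neurod6 and Prox1, for 4 of 4 inhibitory neuron genes, 3 of 4 astrocyte genes (not Aqp4), 4 of 4 oligodendrocyte, 3 of 3 oligodendrocyte precursor, 4 of 4 microglia, and 3 of 3 endothelial and mural genes. None of 3 choroid plexus genes (Ttr, Folr1 and Kcnj13) had one. Of genes of other tissues, Myod1 had 4 such peaks, and Alb and Ins2 had none. The highest Myod1 peak had 3.41 CPM per kb. The highest peak per gene ran from 2.07 to 3.46 for microglia and from 2.29 to 3.77 for endothelial and mural genes. It ran from 2.57 to 3.97 for oligodendrocyte precursors and from 2.92 to 4.21 for inhibitory neurons. Astrocyte (3.82 to 4.23), oligodendrocyte (3.57 to 4.87) and excitatory neuron genes (3.91 to 7.97) were above Myod1. A peak at a gene end alone does not show that a cell type is present. No marker peak passed for acute or chronic restraint. The summed level of the peaks of Slc17a7, Neurod6 and Prox1 was 242.2 to 332.6 CPM in handled mice at 0 min, 250.3 to 277.9 in handled mice at 45 min, 253.3 to 271.0 in chronically restrained mice at 0 min and 248.7 to 279.4 in those at 45 min. Its part in the values above was not tested.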

How the data were processed

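ATAC-seq libraries of the ventral hippocampus of 30 mice were used as deposited, as whole-number counts per peak, with the same peaks in every library. Per the submitters' processing notes, Trimmomatic, Bowtie2, Picard and Genrich 0.6.1 were used with GRCm38; how the regions were combined, what was counted and how multiply matching reads were treated is not given in the sources used here. Another 2 count columns fit no sample's label and were left out.

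Gene positions came from the RefSeq table of GRCm38.p6. Counts were fitted in edgeR 4.0.16 (R 4.3.3): filterByExpr kept 257143 of 257149 peaks, libraries were scaled by TMM, and a robust quasi-likelihood model held group, sex and batch, with F-tests and Benjamini-Hochberg adjustment over all tested peaks. DESeq2 1.42.0 was an alternative. The fit was tested on simulated data with 200 changed peaks. P-values measure the spread between animals. Summed levels are descriptions without a test. Named peaks were, per subcluster, the 3 with the smallest averaged acute p and the 2 with the smallest chronic p, the 3 highest per kb, the C-type starts, the highest and lowest start, the most and least variable, and called list genes; exceptions are marked. The members, lists and rules were chosen with earlier results of these data known. Intervals other than SD and SE are not given. No sequence is printed, and some marker genes are not reported here.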

Additional observations from a re-analysis of the deposited data

Results flagged for a closer look

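Within groups, 80 sets of libraries were screened for a highest or lowest library far from the others (Dixon's gap rule), and 13 gave such a value. For unrelated sets chance alone gives about 1 in 20, but these sets overlap, since the sums contain peaks that were also screened singly. The number flagged is therefore not read against chance. Of these 13, 8 were high values of animal 45 in handled mice at 0 min. It had a Pcdha sum of 62.0 CPM (the others 46.5 to 53.5) and a Pcdhg sum of 240.9 CPM (the others 195.8 to 215.2). At single peaks it had 7.23 CPM at 34561 bp after the Pcdhac2 start (3.10 to 4.03), 2.80 CPM at 19489 bp before the Pcdhgc3 start (1.14 to 1.66), 90.0 CPM at the Pcdhgc4 and Pcdhgc5 start (71.5 to 77.6) and 49.5 CPM at the shared Pcdhg end (39.8 to 43.6). At both peaks between the subclusters it had 28.6 CPM past the Pcdha end (13.9 to 16.9) and 10.4 CPM at Taf7 (5.01 to 7.32). This library also had the highest share of counts at gene ends and the lowest TMM scaling factor (0.875), which raises its CPM values. Before that scaling the member peaks took 0.0265% of its counts, as they did in animal 40 of its group (0.0265%). The part of the gene-end share and of the scaling in these values was not tested.

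The other 5 came from 5 different animals. Animal 59, handled at 45 min, was high at 11964 bp after the Pcdhac2 start with 1.47 CPM (the others 0.732 to 1.05). Animal 63, chronically restrained at 0 min, was low at the Pcdhgc3 start with 11.9 CPM (13.9 to 15.5). Among chronically restrained mice at 45 min, animal 23 was low in the Pcdhg sum with 192.9 CPM (199.0 to 202.2), animal 66 was high at 28521 bp after the Pcdhac2 start with 4.60 CPM (3.26 to 3.69), and animal 56 was low at 136 bp after the Pcdhga11 start with 0.451 CPM (0.660 to 0.780).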

How the results depend on the processing

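The number of called members stayed at 0 in every comparison under each fit tried: RLE and total count scaling, no filter, no covariates, DESeq2, without animal 45, without each batch, single sexes, and members chosen with no extension (33 of the 39 peaks) or 50 kb. Of the 10 named peak differences refitted one by one, the averaged acute difference at the Pcdhac2 start reversed in males, to 0.011; the cause was not tested. Over all 39 members, 15 acute and 14 chronic differences changed sign in males alone, and 4 and 7 without animal 45. Over 13 alternatives the acute difference of the log2 sum ran from -0.099 to -0.026 in Pcdha and from -0.054 to 0.00034 in Pcdhg, and the chronic difference from -0.070 to 0.0024 and from -0.049 to 0.012. Of all tested peaks, 299 were called for the averaged acute difference, and between 20 (females alone) and 681 (without animal 45) in the other fits. The sums have no covariates, so the fits without covariates and with DESeq2 were not run for them, and Pcdhb, with no member, has no alternatives. The sex comparison was not run in single sexes or without covariates. No paired analysis was possible because animal numbers are not shared between groups. Low depth limits the narrow peaks most, where the mean count fell to 23.8 per library.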
